A study of Mus musculus with 2 samples.

Results

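The nuclear genome encodes most protein subunits of the mitochondrial respiratory chain and of ATP synthase, and the transcripts of those genes were described in the left cerebral cortex of aged mice. Members were all annotated protein-coding genes with reads in either library whose names begin as those of the subunits of complex I (Ndufa, Ndufb, Ndufc, Ndufs or Ndufv and a digit), complex II (Sdha to Sdhd), complex III (Uqcr names and Cyc1), complex IV (Cox4 to Cox8 names) or ATP synthase, complex V (Atp5 names). Assembly factors named Ndufaf were left out. The rule found 85 genes with 84 names of the 18534 annotated genes with a read, since Atp5o names 2 overlapping gene entries. There were 37 genes in complex I, 4 in complex II, 9 in complex III, 17 in complex IV and 18 in complex V. They lie on 19 chromosomes, 3 of them (Ndufa1, Ndufb11 and Cox7b) on the X chromosome. At least 20 reads over both libraries were on 77 of them, and the other 8 had fewer. The gene Cox8c, annotated with a matching name, had 0 reads in both libraries. Ndufb1-ps and Cox6c2 match by name but are not annotated as protein-coding.

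The RNA came from left cerebral cortex of B6CASTF1/J mice, the hybrid offspring of a C57BL/6J and a wild-derived CAST/EiJ parent, aged 18 to 20 months. Total RNA, 2 µg per library, was read as long complementary DNA molecules in 2 libraries of 1 group, which the labels number biological replicates 1 and 2 and give the same donor entry. The labels name no treatment, genotype or time contrast, and they disagree on sex (female in the sample fields, male in a description line). 4 Y-linked genes had 0 reads in both libraries. The libraries cannot be taken as separate animals from the labels, so each p-value below measures only the sampling of reads against a difference between these 2 libraries, which may be technical.

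Oxidative phosphorylation passes electrons from NADH through complex I, or from succinate through complex II, to complex III, cytochrome c and complex IV, which reduces oxygen. Complexes I, III and IV pump protons across the inner mitochondrial membrane, and ATP synthase uses their return to make ATP. Neurons draw most of their ATP from this chain. A few core subunits of complexes I, III, IV and V are encoded by mitochondrial DNA, and all the others, with the whole of complex II, are imported from the cytosol.

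Replicate 1 held 774629 reads on annotated genes and replicate 2 held 679147, which were 88.9% and 80.9% of all their reads. Levels are CPM, counts scaled to a total of 1000000 reads on annotated genes. A read stands for 1 cDNA molecule whatever its length, so CPM was not divided by transcript length; whether short and long molecules were recovered alike was not tested. For a gene listed with 0 reads, the limit that counting error allows was 3.87 CPM in replicate 1 and 4.42 CPM in replicate 2. Markers of the tissue were present: the summed level of 5 astrocyte markers was 3616 ± 98.5 CPM, of 5 oligodendrocyte markers 1995 ± 162 CPM, of 5 excitatory neuron markers 1457 ± 88.4 CPM, of 5 inhibitory neuron markers 707 ± 46.2 CPM, of 5 microglia markers 356 ± 13.6 CPM and of 3 endothelial markers 248 ± 60.7 CPM (SD, n = 2 libraries). Single genes held most of some of these sums, such as Aldoc (2440 CPM), Mbp (1379 CPM) and Slc17a7 (1058 CPM). Other markers were barely read, with 2 and 1 reads of Mog and 0 and 7 of Cx3cr1 in replicates 1 and 2. The sums are thus no ranking of the cell classes. In such bulk samples, fewer cells of a type and less RNA per cell cannot be told apart.

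The members held 19449 reads in replicate 1 and 14551 in replicate 2, or 2.51% and 2.14% of the reads on annotated genes. Their summed level was 23267 ± 2604 CPM (SD, n = 2). Most of them lay within a narrow band: 55 of the 77 members with at least 20 reads had a mean level between 100 and 400 CPM. A few stood far above it, and the 10 most abundant members held 40.3% of all the members' reads. Cox4i1 and Atp5b were the 30th and 32nd most abundant of all annotated genes, ahead of Atp5a1 at rank 73 and Cox8a at rank 96.

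**Figure D1:**
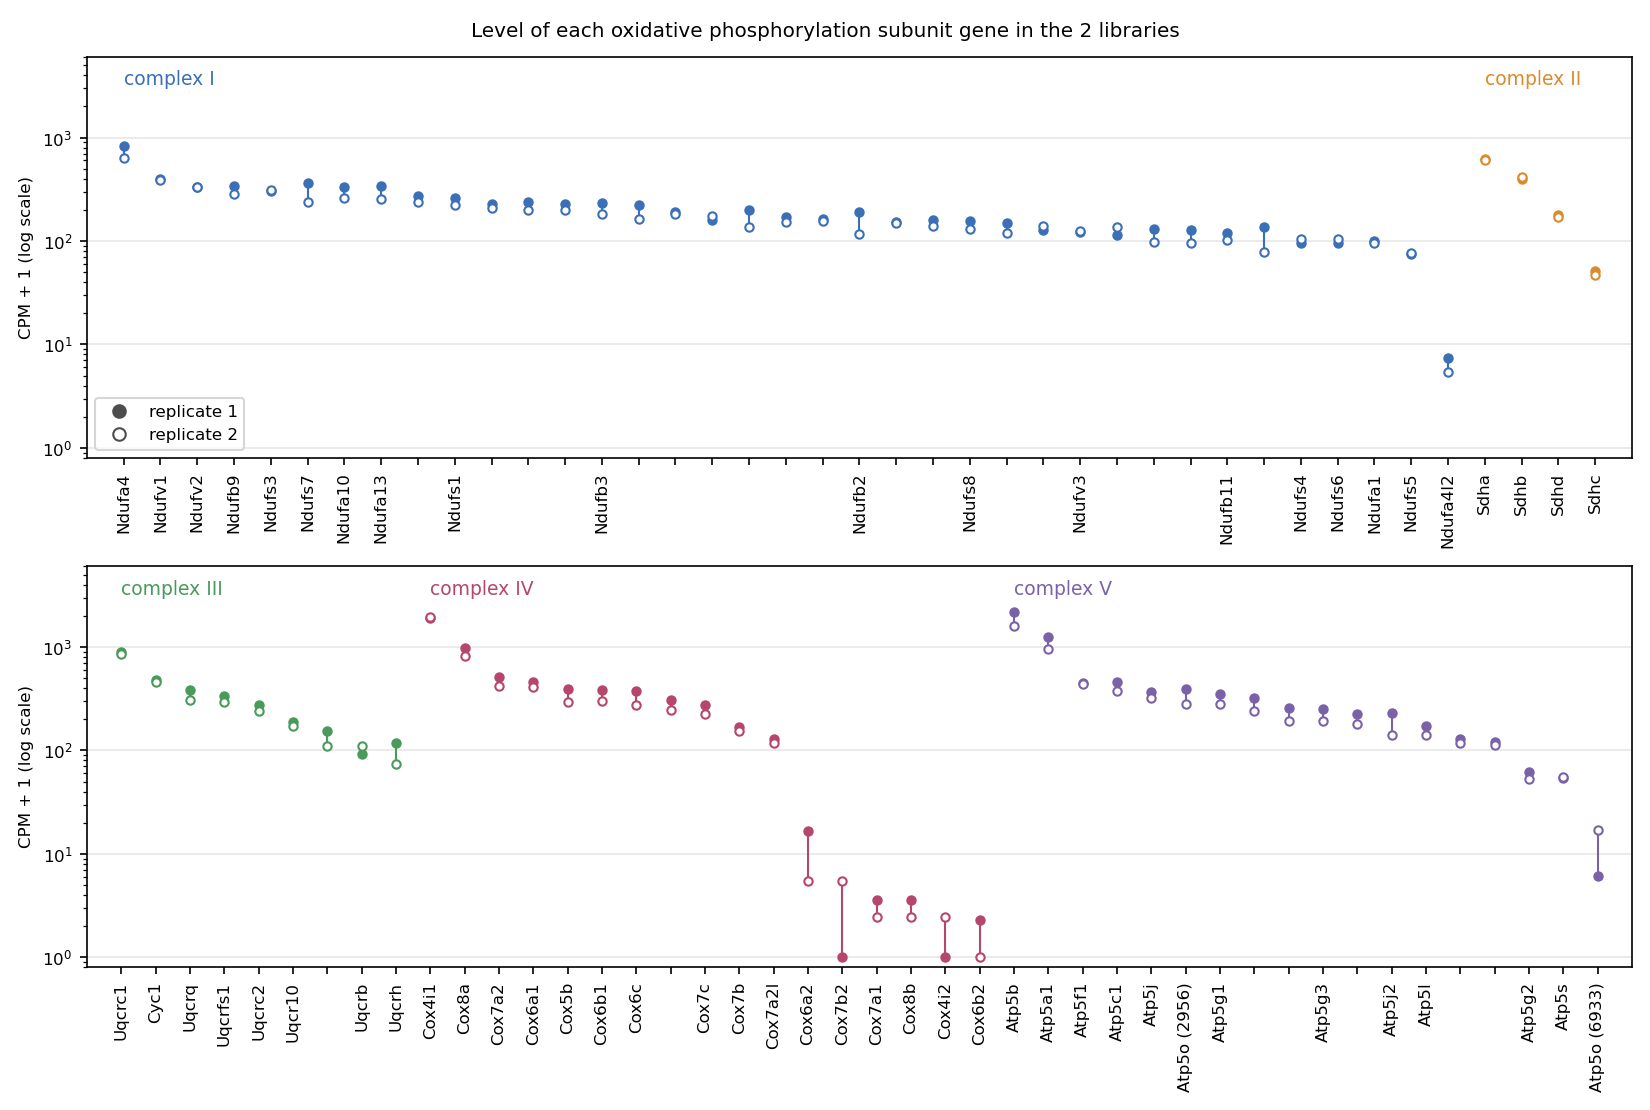
Level of each of the 85 subunit genes, as CPM + 1 on a log axis, ordered by mean level within each complex, with names for genes described in the text; filled points are replicate 1, open points replicate 2, and the line joins them. Cox4i1 and Atp5b lie highest, most members lie between 100 and 400 CPM, and 6 complex IV genes, Ndufa4l2 and the second Atp5o entry lie near the bottom.

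Complex I, the entry point for electrons from NADH and the largest complex, had a summed level of 7819 CPM in replicate 1 and 6701 CPM in replicate 2 over its 37 genes (7260 ± 791, SD, n = 2). Its median member with at least 20 reads stood at 163 CPM, and the highest such member was 9.79-fold above the lowest. Among its core subunits, Ndufv1, which carries the NADH and FMN sites, had the highest mean level at 394 ± 7.20 CPM. Ndufv2, with an iron-sulfur cluster, stood at 334 ± 0.0783 CPM and Ndufs3 at 306 ± 2.18 CPM. Ndufs7, at the end of the cluster chain next to the ubiquinone site, stood at 300.0 ± 86.9 CPM. Ndufs1 at 239 ± 25.5 CPM and Ndufs8 at 142 ± 17.0 CPM were lower. The order of Ndufv2, Ndufs3 and Ndufs7 lies within their spread between the libraries.

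The member named as a complex I gene with the most reads was Ndufa4, with 634 and 433 reads in replicates 1 and 2 (728 ± 128 CPM). Its protein was long listed with complex I and is now placed with complex IV. Among the accessory subunits proper, Ndufb9 (312 ± 43.0 CPM), Ndufa10 (297 ± 52.1 CPM) and Ndufa13 (296 ± 62 CPM) led. The lowest with at least 20 reads was Ndufs5, with 57 and 51 reads (74.3 ± 1.07 CPM), and Ndufa1 had 76 and 64 reads (96.2 ± 2.74 CPM). The place of Ndufs5 leaves out 36 and 28 reads on a near-identical copy, described below, and is uncertain. Ndufa4l2, a paralog of Ndufa4 known as a hypoxia-induced gene, had 5 and 3 reads.

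Complex II, succinate dehydrogenase, is the only complex with no mitochondrially encoded subunit. Its 4 genes summed to 1242 CPM in replicate 1 and 1234 CPM in replicate 2, and their levels differed 12.7-fold. Sdha, the flavoprotein that oxidises succinate, had 482 and 408 reads (611 ± 15.2 CPM), and Sdhb, the iron-sulfur subunit, had 305 and 283 reads (405 ± 16.2 CPM). The membrane anchors were lower, with Sdhd at 136 and 116 reads (173 ± 3.37 CPM) and Sdhc at 39 and 31 reads (48.0 ± 3.32 CPM). Sdhc was the lowest member of any complex with at least 20 reads. The 2 catalytic subunits thus stood above both anchors in each library.

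Complex III passes electrons from ubiquinol to cytochrome c, and its 9 genes summed to 2768 ± 216 CPM (SD, n = 2). Uqcrc1, a core protein, had 695 and 578 reads (874 ± 32.6 CPM), more than 3 times the level of its partner Uqcrc2 (257 ± 21.9 CPM) in each library. Cyc1, the cytochrome c1 that reduces cytochrome c, had 371 and 312 reads (469 ± 13.8 CPM). Uqcrq stood at 348 ± 54.3 CPM and the Rieske protein Uqcrfs1 at 314 ± 33.1 CPM, which is within their spread. The lowest were Uqcrh, with 91 and 50 reads (95.5 ± 31.0 CPM), and Uqcrb, with 70 and 74 reads (99.7 ± 13.1 CPM).

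Complex IV, cytochrome c oxidase, had a summed level of 5543 ± 474 CPM over its 17 genes. Cox4i1, the regulatory subunit that binds ATP, had 1466 and 1311 reads (1911 ± 26.8 CPM), the highest mean of all members, though Atp5b lay above it in replicate 1 and the order of both lies within the spread of Atp5b between the libraries. Cox8a followed with 760 and 559 reads (902 ± 112 CPM), then Cox7a2 with 395 and 286 reads (466 ± 62.8 CPM) and Cox6a1 with 355 and 280 reads (435 ± 32.5 CPM). Cox5b, Cox6b1 and Cox6c lay between 323 and 340 CPM, closer together than their spread between the libraries. With Ndufa4 counted in complex IV, as its protein is placed now, the sum of complex IV was 6271 CPM and that of complex I 6532 CPM.

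ATP synthase had a summed level of 7249 CPM in replicate 1 and 5667 CPM in replicate 2 over its 18 genes, and the widest range of levels, 35-fold between members with at least 20 reads. Atp5b, the catalytic beta subunit, had 1681 and 1079 reads (1879 ± 411 CPM), and Atp5a1, the alpha subunit, had 975 and 643 reads (1103 ± 221 CPM). Both proteins are present in several copies in each enzyme. Atp5f1, the b subunit of the stalk, stood at 441 ± 4.79 CPM and Atp5c1, the rotating gamma subunit, at 417 ± 60.5 CPM. The lowest with at least 20 reads were Atp5s, also called factor B, with 41 and 37 reads (53.7 ± 1.10 CPM), and Atp5g2 with 47 and 35 reads (56.1 ± 6.46 CPM). The place of Atp5g2 leaves out reads on its pseudogene copies, described below, and is uncertain. The second Atp5o entry, which overlaps the first on the same strand, had 4 and 11 reads. All of these were on models of 1 exon between chr16:91687875 and 91868731, outside the first entry, which begins at 91925214. They are not reads of the known subunit transcript.

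Several complex IV subunits, subunit c of ATP synthase and Ndufa4 exist as paralogs, and the cortex used mainly 1 gene of each pair. Cox4i1 held all in replicate 1 and 99.9% in replicate 2 of the reads on itself and Cox4i2, a lung form that low oxygen induces and that had 0 and 1 reads here. Cox8a held 99.7% and 99.8% of the reads on itself and Cox8b, a heart and muscle form. Cox6b1 held 99.7% and all against the testis form Cox6b2, Cox7b held all and 97.2% against Cox7b2, and Ndufa4 held 99.2% and 99.3% against Ndufa4l2. Cox7a1, the heart and muscle form of that subunit, had 2 and 1 reads, against 395 and 286 reads of Cox7a2. Cox7a2l, whose protein joins complexes III and IV into supercomplexes, held 19.8% and 21.6% of the reads of its family.

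The muscle form Cox6a2 was the paralog with the most reads among those low members, 12 in replicate 1 and 3 in replicate 2, or 3.27% (95% Wilson interval 1.88 to 5.63) and 1.06% (0.361 to 3.07) of the reads on Cox6a1 and Cox6a2. The intervals overlap. Of 6 striated muscle markers, 3 (Myh6, Tnnt3 and Mb) had 0 reads, Ckm had 0 and 1, Acta1 had 15 and 16 and Myh7 had 26 and 41. The list summed to 52.9 CPM in replicate 1 and 85.4 CPM in replicate 2, and its part in the Cox6a2 reads was not tested.

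**Figure D2:**
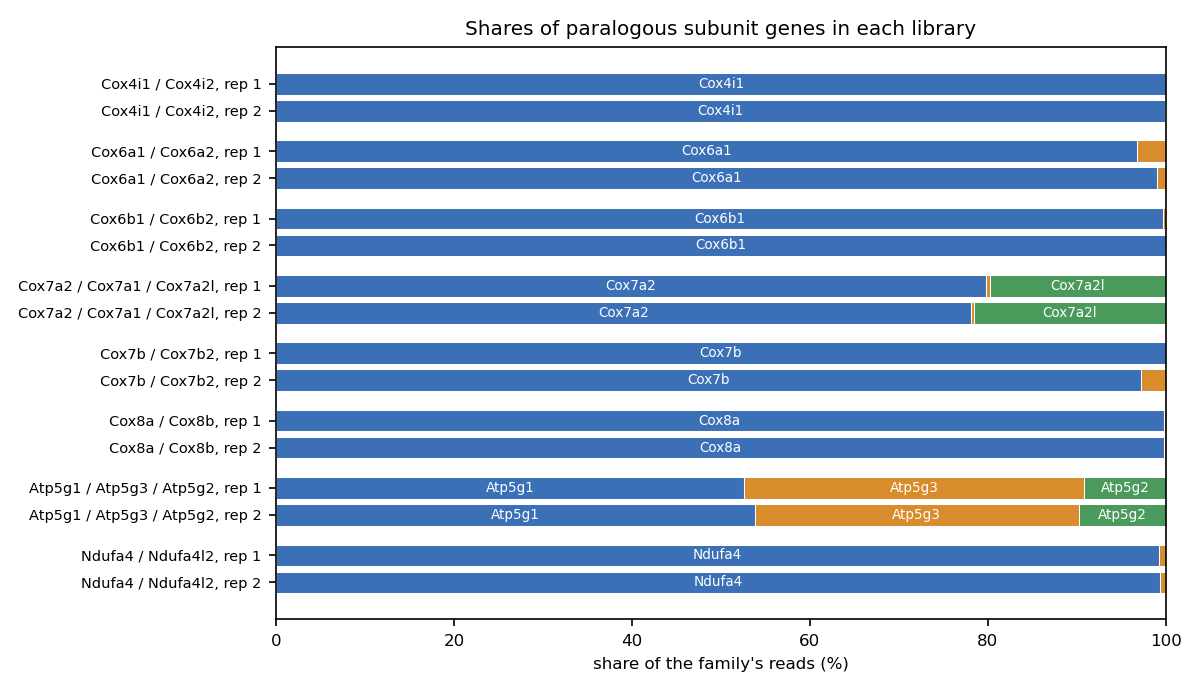
Share of the reads of each paralog group held by each gene, in percent, with a bar for each library; within a bar, blue is the most abundant gene and orange and green its paralogs. In every pair, 1 gene holds at least 96.7% in both libraries, while Cox7a2l holds 19.8% and 21.6% of its group and the 3 Atp5g genes are all present.

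Subunit c of ATP synthase, which forms the proton-driven ring, was the exception, with all of its 3 genes in use. Atp5g1 had 269 and 192 reads, Atp5g3 195 and 130, and Atp5g2 47 and 35. Atp5g1 held 52.6% of the reads of the 3 genes in replicate 1 and 53.8% in replicate 2, Atp5g3 held 38.2% and 36.4%, and Atp5g2 held 9.20% and 9.80%. The order was the same in both libraries. The 3 genes encode the same mature protein behind different import peptides, and the ends of their coding sequences show how far the bases that separate their reads are spread. The last 60 coding bases are given without the stop codon, with capitals at each position where the 3 differ (GENCODE M21 on GRCm38, minus strand of chr11:96073107-96073166, chr15:102663017-102663076 and chr2:73908596-73908655).

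Atp5g1: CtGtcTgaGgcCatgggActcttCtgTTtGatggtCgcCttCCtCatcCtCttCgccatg

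Atp5g2: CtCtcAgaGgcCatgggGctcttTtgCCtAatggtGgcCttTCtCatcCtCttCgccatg

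Atp5g3: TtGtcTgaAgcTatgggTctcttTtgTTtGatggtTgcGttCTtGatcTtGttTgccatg

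Over the last 225 coding bases, Atp5g1 and Atp5g2 are 84.9% identical, Atp5g1 and Atp5g3 80%, and Atp5g2 and Atp5g3 78.7%. Processed copies elsewhere in the genome are closer than that. Over the aligned part, at least 80% of the coding sequence, Atp5g2 matches the pseudogenes Gm10231 and Gm10175 with no mismatch. Those were given 49 and 37 reads in replicate 1 and 26 and 24 in replicate 2. With the reads of such copies added, an alternative chosen after seeing the data, the share of Atp5g2 over both libraries became 21.1% in place of 9.45%, with 47.4% for Atp5g1 and 31.5% for Atp5g3. The level of Atp5g2 is thus uncertain.

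Near-identical copies touched a few other members. Coding sequences of 84 members were aligned to annotated pseudogene transcripts, and 18 members had a copy of at least 95% identity over at least 80% of the coding sequence, 34 copies in all. Reads were on 12 of the copies, 222 in replicate 1 and 175 in replicate 2. Cox7c, with 210 and 153 reads, had 57 and 59 more on its copies, mostly on Gm12338, which matches with no mismatch over the aligned part. Ndufs5 had 36 and 28 reads on BC002163, and Atp5l had 16 and 14 on Gm10221. These 3 levels are uncertain in the same way, and in 14 of the 18 members the copies held under 10% of the gene's own reads.

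The reads also show which exons were joined. Per member, a read was called complete when its model held all the coding introns of an annotated coding transcript. A 3′ read held only a run of introns at the 3′ end of such a transcript, or lay in the last exon. The run could have any number of introns short of all the coding ones. This division was chosen after the models had been seen. Complete reads made up 84.4% of the members' reads in replicate 1 and 83.9% in replicate 2, against 72.7% and 69.4% over all other protein-coding genes. Over genes, the median complete share was 92.8% for the 77 members with at least 20 reads and 69.6% for all 8368 protein-coding genes with at least 20 such reads. Subunit transcripts are short, with a median model length of 838 nt weighted by reads. Among genes whose median model length lay between 499 and 1904 nt, complete reads were 85.0% and 83.6% for 64 members and 80.9% and 78.7% for the other genes. At that length the members had more 3′ reads than the other genes, 12.1% and 12.9% against 9.14% and 9.27%, whereas without the match in length they had fewer, 12.5% and 12.6% against 14.6% and 15.1%.

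The 3′ reads of the members were concentrated in a few genes. Of 4268 such reads, 3207 (75.1%) were on Cox4i1, Atp5b, Ndufa4, Ndufb3, Ndufs7 and Uqcrq, the 6 members with the most, chosen for that. Over the other 79 members, 3′ reads were 3.98% of reads in replicate 1 and 4.17% in replicate 2, and complete reads 92.4% and 91.8%. In Cox4i1 the 3′ reads outnumbered the complete ones, with 59.6% and 63.8% of reads. The shares were 62.9% and 51.2% in Ndufb3, 46.1% and 37% in Ndufa4, 30.7% and 25.9% in Ndufs7, 25.4% and 16.7% in Uqcrq and 24.0% and 21% in Atp5b. In 5 of these 6 genes the share was lower in replicate 2, and in Cox4i1 it was higher.

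**Figure D3:**
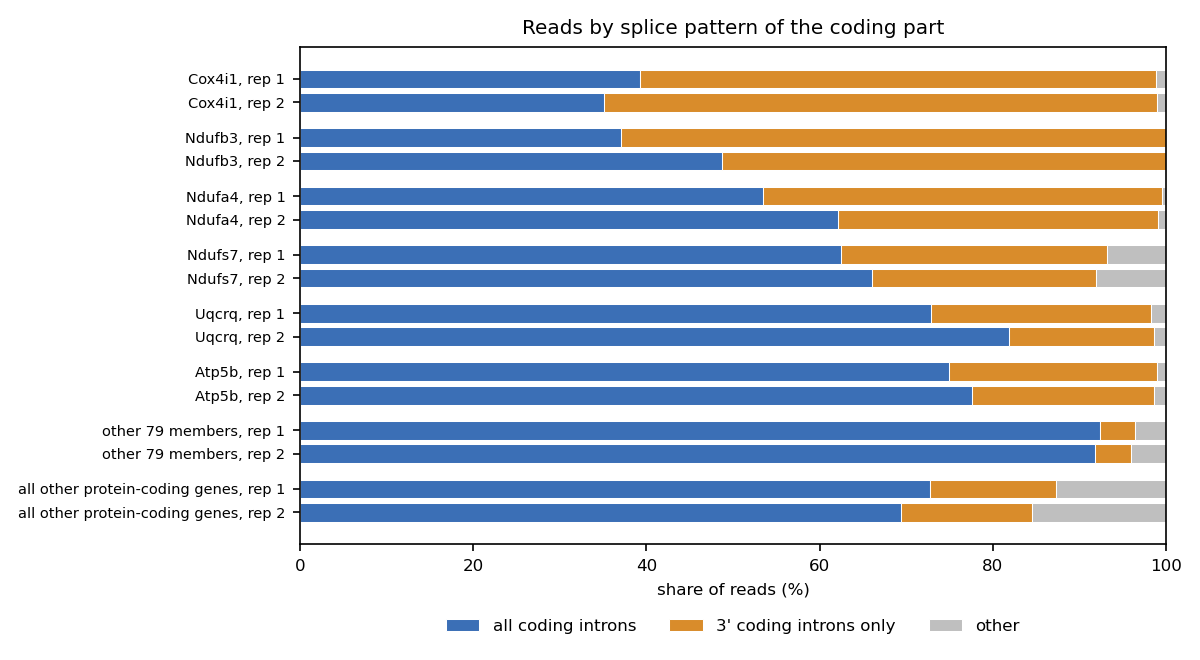
Share of reads, in percent, that held all coding introns of an annotated transcript (blue), only the 3′ ones (orange) or another pattern (grey), with a bar for each library. In Cox4i1 and Ndufb3 the 3′ reads hold most of the bar, while the bar of the other 79 members, from which these 6 were taken out for their 3′ reads, reaches 92.4% and 91.8% complete; nothing was taken out of the bar of all other protein-coding genes (72.7% and 69.4%).

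Cox4i1 (chr8:120668222-120674207, plus strand, GRCm38) was thus counted mostly on a short form. A transcript of 3 exons and 578 nt, annotated as one with a retained intron, held 868 and 829 reads, against 556 and 439 on the coding transcript of 5 exons and 745 nt. Both introns of the short form are also introns of the coding one, so its reads carry the junctions of exons 3 and 4 and of exons 4 and 5 but not that of exons 2 and 3. The 20 coding bases on each side of these junctions follow, with the bases that meet in capitals.

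Cox4i1 exons 2 and 3, in the long form: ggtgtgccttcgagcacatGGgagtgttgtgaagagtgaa

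Cox4i1 exons 3 and 4, in both forms: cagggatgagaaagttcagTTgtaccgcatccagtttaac

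Cox4i1 exons 4 and 5, in both forms: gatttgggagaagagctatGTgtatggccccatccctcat

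Reads given to an annotated transcript are listed with the annotated ends, so the files do not show whether the reads of the short form begin inside intron 2 or further down. The same holds for the count of complete molecules: 37.3% of all Cox4i1 reads show the full coding chain. The rank of Cox4i1 given above counts all of its reads. Its complete reads were 575 in replicate 1 and 461 in replicate 2. That was fewer than in Atp5b (1260 and 837), Atp5a1 (906 and 594), Cox8a (744 and 553) and Uqcrc1 (640 and 535).

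The 3′ forms of the other 5 genes were unannotated models. Ndufa4 had a model of its last 2 exons with 292 and 160 reads, beside 337 and 268 reads on the most abundant coding transcript. Atp5b had a model of 2 exons and 372 nt with 322 and 167 reads, beside 1260 and 837 on the full coding transcript. Ndufb3 had a model of the last exon alone, 316 nt long, with 112 and 63 reads, beside 65 and 58 on its most abundant coding transcript. Ndufs7 had 81 and 35 reads on its last 2 exons, and Uqcrq had 76 and 36 on models of 1 exon. All of these models had fewer reads in replicate 2, also relative to the gene.

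In spite of these forms, most members were read mainly as 1 transcript. The most abundant transcript of a member held a median 90.2% of its reads, against 63.0% over 8830 protein-coding genes with at least 20 reads, and it held under 80% in 17 members. It was an annotated transcript in 72 of the 77 members. Annotated transcripts held 84.7% of the members' reads in replicate 1 (Wilson 84.2 to 85.2) and 85.6% in replicate 2 (85.0 to 86.1), against 70.4% and 67.4% over all protein-coding genes. These comparisons with other genes were not matched for transcript length. With such a match, the gap in complete reads described above was smaller. Partial models, whose introns are a run of annotated ones, held 11.8% and 10.7%, and models with an unannotated splice site 1.37% and 1.42%.

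Of the 5 members with an unannotated major transcript, 4 had all coding introns in it. Ndufa13, an accessory subunit also known as GRIM-19, had 251 and 165 reads (95.9%) on a model of 4 exons, and 0 reads on an annotated transcript. Atp5f1 had 315 and 263 reads (90.2%) on a model of 7 exons that has every coding intron and lacks only introns outside the coding part. Atp5j, coupling factor 6, had 170 and 107 reads (55.6%) on such a model, and Atp5s had 14 and 13 (34.6%). In Ndufb3 the major model was the last exon described above.

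Other members were split over transcripts that share their coding introns and differ at the ends. In Atp5g1 a transcript of 4715 nt held 145 and 102 reads, and one of 596 nt held 104 and 73. In Ndufb2 a transcript of 4371 nt held 47 and 43 reads, and one of 455 nt held 35 and 28. Both long forms run further at the 3′ end. Ndufs1, the largest core subunit of complex I, was split over a transcript with 97 and 68 reads and another with 67 and 38 reads. A retained-intron transcript of Cyc1 held 8.78% of the reads of Cyc1.

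Exons that were included in some reads and skipped in others were few, with 7 between 5% and 95% inclusion at 20 or more informative reads, 2 of them with alternative flanking splice sites. The clearest with an effect on the protein was in Ndufv3, the small flavoprotein subunit of complex I, whose short and long forms are both annotated as coding, with 104 and 468 codons. The exon of 1092 nt that makes the long form (chr17:31527310-31528401, plus strand) was in 12 of 91 reads in replicate 1 (13.2%, Wilson 7.71 to 21.6) and 11 of 79 in replicate 2 (13.9%, 7.96 to 23.2). The forms part at the junction in capitals.

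Ndufv3 short form: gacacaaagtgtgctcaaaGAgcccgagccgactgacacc

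Ndufv3 long form: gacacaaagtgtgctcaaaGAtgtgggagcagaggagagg

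In Atp5c1 an exon of 37 nt (chr2:10056770-10056806, minus strand) holds the end of the reading frame in the longer form. It was included in 337 of 345 reads in replicate 1 (97.7%, Wilson 95.5 to 98.8) and 237 of 249 in replicate 2 (95.2%, 91.8 to 97.2). The gamma subunit is known in a form with a final aspartate, found in liver, and a form without it, found in heart and muscle. With the exon the frame has 298 codons and ends on gat before the stop, and without it 297 codons. The last 20 bases before the splice site are given with the bases that follow, to the stop codon, in capitals.

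Atp5c1 with the exon: atctctggggctgctgctctGGATTAA

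Atp5c1 without the exon: atctctggggctgctgctctGTAA

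The form with the exon thus held nearly all reads in both libraries. The noncoding exon of 104 nt of Ndufs1 (chr1:63172154-63172257) was in 11.9% and 13.6% of reads over both libraries with its 2 upstream splice sites. With the second of these it was in 5 of 78 reads in replicate 1 (6.41%) and 13 of 54 in replicate 2 (24.1%), an exact p of 0.00471 by Fisher's test, two-sided, and an adjusted p of 1.0. A noncoding exon of 86 nt in Uqcr10 was in 8.96% and 10.9% of reads. A coding exon of 111 nt in Atp5s, with the more used of its 2 upstream splice sites, was in 18 of 26 reads in replicate 1 and 16 of 19 in replicate 2. Only exons between 5% and 95% inclusion over both libraries, with 20 informative reads in each, were tested. These were 5 of the members' exons, 1 of them with both of its upstream splice sites, and 0 differed between the libraries (0.0658% of 1519 exon and splice site combinations over all genes did). The exon of Atp5c1, above that range, was not tested.

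Members had 340 introns that are not annotated, with 694 reads, and 230 of them rested on 1 read. At least 20 reads supported 3. In Sdhb (chr4:140961203-140979193, plus strand) the intron between exons 1 and 2 ended 6 bases further downstream in 22 reads of replicate 1 and 21 of replicate 2, or 7.36% and 7.61% of the reads across that intron. The bases it leaves out are coding and keep the frame, and they are shown in capitals between the end of exon 1 and the rest of exon 2.

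Sdhb exons 1 and 2: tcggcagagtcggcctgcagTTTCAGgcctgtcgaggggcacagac

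The omitted run ends in AG, the letters found at the end of most introns. The other 2 introns were in Atp5j, a splice site moved by 5 nt in 20 and 24 reads (7.75% and 12.4% of reads across it) and another moved by 47 nt in 19 and 15 reads (24.4% and 20.8%).

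Between the libraries, the subunit genes as a list were lower in replicate 2. Their median log2 ratio of replicate 2 over replicate 1 was -0.22, on CPM + 1, against 0.03 over all 9143 genes with at least 20 reads, and 65 of 77 members (84.4%) lay below 0, against 47.3% of all genes. By the exact conditional binomial test with Benjamini-Hochberg adjustment over all genes, 7 members were lower in replicate 2 and 0 were higher. Over all genes 0.733% were called lower, 1.26% higher and 1.99% in either direction. At an unadjusted p under 0.05 there were 28 of the 77 tested members, and 11.8% of all genes. The members and all genes were not matched for number of reads or transcript length. A gene with more reads passes this test at a smaller ratio, so the shares called are not directly comparable. The median ratio was -0.20 in complex I, -0.05 in complex II, -0.17 in complex III, -0.27 in complex IV and -0.30 in complex V; the differences between complexes were not tested.

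**Figure D4:**
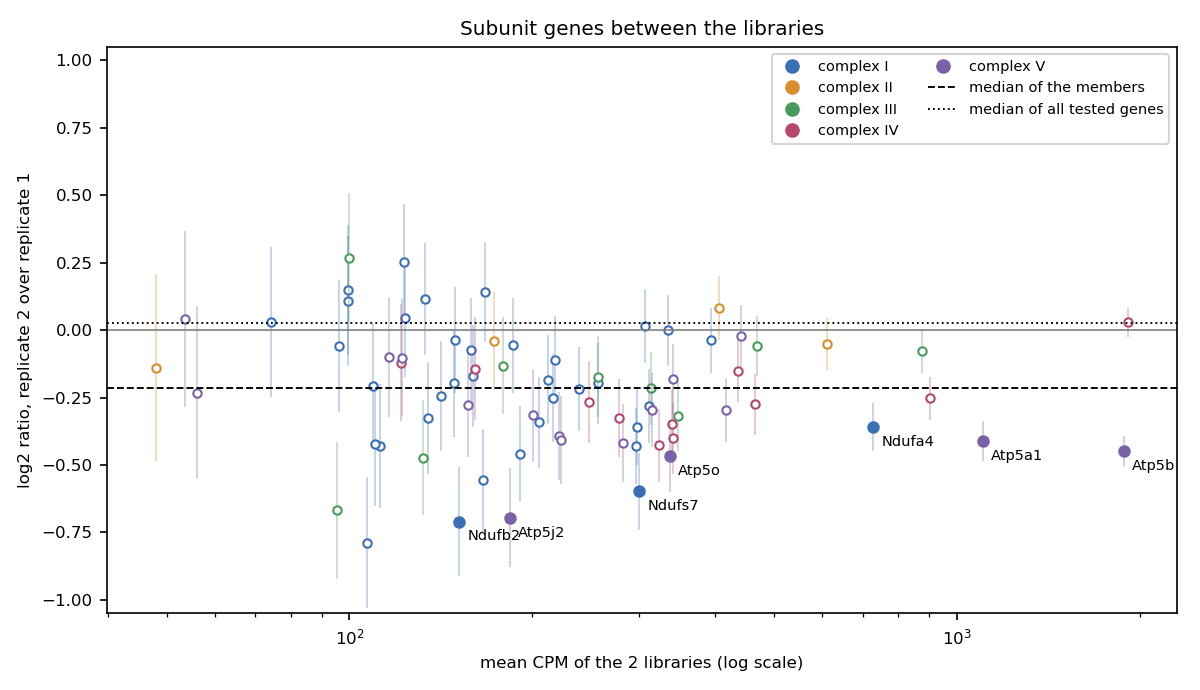
Log2 ratio of replicate 2 over replicate 1 against mean CPM (log axis) for the 77 subunit genes with at least 20 reads, coloured by complex; bars are the counting SE and filled points passed the test. Most points lie below 0, the dashed line marks the members' median of -0.22, the dotted line the median of 0.03 over all tested genes, and Cox4i1 at the far right lies at 0.03.

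Of the called members, 4 belong to ATP synthase. Atp5b had 2170 CPM in replicate 1 and 1589 CPM in replicate 2 (log2 ratio -0.45 ± 0.06 as counting SE, with an adjusted p of 6.72e-13 by the exact binomial test). Atp5a1 had 1259 and 947 CPM (log2 ratio -0.41 ± 0.07, with an adjusted p of 4.74e-06 by the same exact test). Atp5j2, the f subunit, had 227 and 140 CPM (-0.70), and Atp5o, the stalk protein OSCP, had 391 and 283 CPM (-0.47). With reads of annotated transcripts alone, Atp5j2 had a ratio of -0.57 and an adjusted p of 0.136, and Atp5o a ratio of -0.38 and an adjusted p of 0.219, by the same exact test. Only Atp5b and Atp5a1 remained called with those reads, where 2 of 74 members and 0.845% of 6508 genes passed. With TMM or DESeq2 size factors, which centre the libraries otherwise, 10 members were lower in replicate 2 (2.02% and 2.01% of all genes called in either direction), and with multi-exon models alone 5 were (0.983%). With a minimum of 10 reads 7 were lower (1.68%), and with no minimum 6 (0.831%).

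The 3 called members of complex I lost the call with reads of annotated transcripts only. Ndufa4 had 818 CPM in replicate 1 and 638 CPM in replicate 2 (log2 ratio -0.36), and its ratio was -0.07 with those reads. Ndufs7 had 361 and 239 CPM (-0.60), and a ratio of -0.45 with those reads. Ndufb2 had 188 and 115 CPM (-0.71), but models of 1 exon held 48 reads in replicate 1 and 1 read in replicate 2. Such models were at most 4360 nt long and reached chr6:39607669, while the gene ends at 39603382. The model that reaches furthest thus lay almost wholly past the annotated 3′ end of the gene. Without models of 1 exon the ratio of Ndufb2 was -0.14, and with reads of annotated transcripts only it was 0.087, so its direction turned. Cox4i1 (log2 ratio 0.03, SE 0.05) and Sdhb (0.08, SE 0.12) did not pass the test.

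Other quantities moved between the libraries as well. Blood genes summed to 461 CPM in replicate 1 and 246 CPM in replicate 2 over 5 genes, with Hba-a1 called (log2 ratio -1.15). Of 28 markers of the 6 cortical cell classes named above, 25 were tested and 3 were called, Gfap (-0.89), Mbp (-0.23) and Cldn5 (-0.62), each lower in replicate 2. Reads on models opposite to annotated genes were 9.80% of the number of gene reads in replicate 1 and 20.6% in replicate 2. The part of any of these in the members' ratios was not tested.

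The composition of the members' reads did not pass a test between the libraries. The share of the major transcript was tested in 77 members by Fisher's exact test, and 0 differed (0.164% of 6116 genes did). At an unadjusted p under 0.05 there were 11, and 6.57% of all genes. The share of 3′ reads was tested in 77 members, and 0 differed (1.82% of 5716 genes did), with 7 at an unadjusted p under 0.05, and 7.4% of all genes. The lowest of these was Ndufa4, whose 3′ share of 46.1% in replicate 1 and 37% in replicate 2 had an exact p of 0.00369 and an adjusted p of 0.148.

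Genes that serve the same pathway were read from 4 lists. The 49 assembly factors summed to 2740 ± 11.3 CPM (SD, n = 2), far below the subunits they help to insert. Higd1a (266 CPM), Coa3 (189 CPM) and Cox14 (165 CPM), which act on complex IV, and Ttc19 (129 CPM), which acts on complex III, were the highest. Of 44 tested, 0 were called, and their median log2 ratio was -0.01.

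The 13 carriers, channels and cytochrome c genes summed to 5652 ± 473 CPM. Slc25a4, the ADP/ATP carrier of heart, muscle and brain, had 1827 and 1453 reads (2249 ± 155 CPM), above every subunit gene. Slc25a5, another ADP/ATP carrier, stood at 1051 ± 116 CPM, the phosphate carrier Slc25a3 at 813 ± 89.9 CPM and somatic cytochrome c, Cycs, at 347 ± 19.6 CPM. The testis genes Cyct and Slc25a31 had 0 reads. Of 11 tested, 0 were called, with a median ratio of -0.23.

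Transcription factors and coactivators of the pathway were low. The 10 regulators summed to 293 ± 1.93 CPM, led by Esrra (88.6 CPM), with Polrmt (40.7 CPM), Tfam (35.3 CPM) and Gabpb1 (25.7 CPM) next; 8 were tested and 0 called, with a median ratio of 0.11. The 13 mitochondrially encoded subunits summed to 965 ± 56.3 CPM, of which mt-Co1 had 464 CPM, and mt-Nd4l had 0 reads. Of 9 tested, 0 were called, with a median ratio of -0.08. How well the library method captures mitochondrial transcripts: not given in the sources used here.

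Motifs of known regulators of the pathway were counted in the members' promoters. The RefSeq table of windows from 250 bases before to 50 after the start (GRCm38.p6) held 71 windows for 66 of the 84 member names. The core of the NRF1 motif, searched as CGCANGCG on both strands, was in 28 of 71 windows (39.4%), against 8.21% of 32851 windows of all genes. With a further G before it and a C after it, the form searched first, it was in 18 windows (25.4%), against 4.6% of all. The ETS motif CCGGAAG, bound by GABP, was in 16 windows (22.5%), against 8.86% of all, and the YY1 motif AAGATGGCG was in 7 (9.86%), against 1.40% of all. None of these motifs holds another, and in 0 of the member windows did matches of different motifs overlap. A match is a description of the letters and not evidence of binding. The windows of all genes were not matched to the members for base content or level. Some members, such as Ndufa5 and Ndufa7, have windows that overlap each other, so the windows are not independent. Windows with a match belonged to abundant genes, such as Sdha, Uqcrc1 and Cox6a1, and to less abundant ones, such as Uqcrh, Ndufs6 and Ndufs4.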

How the data were processed

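The members, the gene lists and the tests were chosen with earlier results of these data known. For each of 2 libraries the authors deposited whole counts of long reads per transcript model and an annotation of the models with exon numbers, lengths and coordinates; per the file headers, a table has 1 column of counts. Per the labels the assembly is mm10, and the annotation source column names TALON. The aligner, its settings, the platform and the use of strand in counting: not given in the sources used here. 0 columns belonged to other samples.

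Gene counts were sums over all models of an annotated gene, scaled to CPM by the reads on annotated genes. Spike-in, antisense and intergenic models were left out of that total. Transcripts missing from a table were taken as 0 reads. The GENCODE M21 reference holds the same build and transcript identifiers as the files.

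The test of levels was the exact conditional binomial test, two-sided, for genes of at least 20 reads over both libraries. Where both libraries had 20 reads or more, Fisher's exact test (two-sided) compared shares, and exon inclusion where it lay between 5% and 95% over both libraries. Benjamini-Hochberg adjustment at 0.05 ran over all genes or exons of a family. The counting SE of a log2 ratio, the Wilson intervals at 95% and the limit for 0 reads (3 counts) cover counting error only, and reads carry no molecular identifiers. Unannotated models were matched between libraries by their introns, and those of 1 exon were pooled per gene. An exon was informative in reads that join its flanking introns or join the flanks directly. BLAST aligned coding sequences to pseudogene transcripts. Alternatives were TMM (edgeR 4.0.16) and DESeq2 1.42.0 size factors, other filters and pseudocounts, other sets of reads and leaving out a library. The tests were also run on simulated counts with 200 genes changed. Python 3.11.15 with scipy 1.17.1 was used.

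Members were named by rule: the 4 highest and 2 lowest of each complex, paralogs, members with 0 reads, called members, members with a split or unannotated major transcript, those with an alternative exon between 10% and 90%, those with the most partial models, and up to 4 genes a list by level with every called gene. Others were named after their values were seen, among them further core subunits of complex I, the genes with pseudogene copies, Sdhb and the alternative exons outside that range. Printed sequences come from GENCODE M21 transcripts. A result on a withheld item is not reported here.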

Additional observations from a re-analysis of the deposited data

Results flagged for a closer look

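Models on the strand opposite to a member had 163 reads in replicate 1 and 281 in replicate 2, a signal in models that no comparison above used. They lay opposite 46 members and were 0.838% and 1.93% of the members' own reads, against 9.80% and 20.6% for all such models relative to the reads on annotated genes. Ndufa13 had 11 and 28 such reads and Sdha had 11 and 19. Ndufb1-ps, annotated as a lncRNA of a bidirectional promoter and left out by the rule on gene type, had 72 reads in replicate 1 and 48 in replicate 2, as many as some of the lower members. A group of 2 libraries is too small to test for an outlying library.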

How the results depend on the processing

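With 2 libraries of 1 group, depth limits single members: at 20 reads a library, shares carry wide intervals, and the 8 members under 20 reads were not tested. No paired analysis was possible because there is 1 group and no groups share replicate numbers. The summed level of all members (23267 CPM) was 28489 with reads of annotated transcripts only, 26128 with multi-exon models only and 20124 with all mouse reads as the total. In the same order complex I was 8559, 8084 and 6279 CPM, complex II 1513, 1365 and 1067, complex III 3626, 3064 and 2391, and complex IV 7728, 6298 and 4790. Complex IV was 6271 with Ndufa4 counted in it, an alternative chosen after seeing the data. These shifts come from the change in denominator or in the reads counted. Complex V moved by less than the spread between the libraries. Leaving out a library returns the value of the other one, so it is no separate check of the levels. The values were 21425 to 25108 CPM for all members, 6701 to 7819 for complex I and 1234 to 1242 for complex II. They were 2615 to 2920 for complex III, 5208 to 5878 for complex IV and 5667 to 7249 for complex V. The share on annotated transcripts was 84.7% to 85.6% in the single libraries and 87.1% with multi-exon models only. The median log2 ratio stayed between -0.24 and -0.14. Members that differed were 7, and 10 with TMM or DESeq2 factors, which add Cox6c, Ndufa3 and Cox8a, 5 with multi-exon models, 7 at 10 reads, 6 with no filter and 2 with reads of annotated transcripts only. Under the last setting Ndufb2 turned to 0.087; the cause was not tested. Calls of major transcript share stayed at 0 under every alternative run for them. Without replicate 1 or 2, the exon of Ndufs1 with the second splice site went to 24.1% or 6.41%, outside the counting interval of its 13.6%. Such moves were 3 without replicate 1 and 2 without replicate 2. With annotated transcripts only, it fell to 0.0% for the exon of Ndufs1 and reached its maximum, inclusion in all reads, for that of Atp5s, since the annotation holds no transcript of the other form with those splice sites among the reads.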

Other observations

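Several members overlap a gene on the opposite strand, and the files do not say whether strand was used in counting, so reads of 1 exon in such pairs cannot be told apart from these tables. Reads with a member's own introns are placed by them. Cox4i1 overlaps Emc8, a subunit of the membrane insertion complex of the endoplasmic reticulum, which had 50 reads in replicate 1 and 60 in replicate 2. Atp5d overlaps Cbarp (232 and 205 reads), Ndufs6 overlaps Mrpl36, a protein of the mitochondrial ribosome (29 and 20 reads), and Ndufb5 overlaps Mrpl47, another (14 and 22 reads). Atp5j overlaps Gabpa, which encodes the alpha subunit of the GABP factor of the regulator list (16 and 15 reads). On the same strand, Ndufb9 shares its locus with Gm49356 (2 and 9 reads).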
